A study of Mus musculus with 6 samples.

Results

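The 10 transcripts described here are 7 matrix metalloproteinases (Mmp2, Mmp3, Mmp9, Mmp10, Mmp11, Mmp13 and Mmp14) and 3 tissue inhibitors of metalloproteinases (Timp1, Timp2 and Timp3). They were chosen by gene name from the 28 MMP and TIMP genes among the 22880 genes of the RNA sequencing table. The table holds 6 libraries of MC-38GFP cells, a mouse colon adenocarcinoma line carrying green fluorescent protein, which had grown as orthotopic tumors in the cecum wall of C57BL/6J mice. The 3 Mock libraries come from control cells and the 3 HIF-1α-KD libraries from cells with a knockdown of HIF-1α, the oxygen-regulated subunit of hypoxia-inducible factor 1. Cells of both groups were transduced with the vector pLKO.1-puro, had not been passaged in vivo before, and were sorted as living GFP+ cells without CD45 and CD31, so most leukocytes and endothelial cells should have been left out. The knockdown was in the tumor cells, while the stromal cells of the host kept their own HIF-1α. The ages of the mice, the number of knockdown clones and whether a library is 1 tumor are not given in the sources used here, so p-values measure only the spread between these libraries, which may be technical in part.

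MMPs are zinc-dependent endopeptidases that are made as inactive proenzymes and cleave components of the extracellular matrix. MMP2 and MMP9 are the gelatinases, which degrade denatured collagen and basement membrane collagen, MMP3 and MMP10 are stromelysins, MMP13 is a collagenase of fibrillar collagen, MMP11 is a secreted enzyme activated by furin inside the cell, and MMP14 is anchored in the plasma membrane. TIMPs bind the active site of MMPs, and TIMP2 also takes part in activation, since it links proMMP2 to MMP14 at the cell surface. Endostatin, an inhibitor of angiogenesis, is released from collagen XVIII by MMPs and other proteases, which is why these enzymes bear on the vessels of the tumors studied. RNA levels do not measure proenzyme activation or enzyme activity.

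Reads on genes were between 19845852 and 30809139 per library. The target of the knockdown, Hif1a, had normalized counts (reads divided by 1 scaling factor per library) of 6914, 5424 and 4945 in Mock replicates 1 to 3 and of 697.3, 3142 and 1928 in HIF-1α-KD replicates 1 to 3. All 3 HIF-1α-KD values were below all Mock values, and HIF-1α-KD replicate 1 was the lowest. The log2 fold change of HIF-1α-KD over Mock, on the scale of log2(normalized count + 1), was -1.82 (SE 0.46), with an adjusted p = 0.219 (limma, Benjamini-Hochberg over all 12014 genes tested), and Hif1a passed an unadjusted limit of 0.05. Along the first principal component, which held 39.22% of the variance, HIF-1α-KD replicate 1 scored 56.19 and Mock replicate 1 scored -39.08, and the other 4 libraries lay between -13.7 and 10.26. The second component held 25.24%. On it HIF-1α-KD replicates 3 and 2 scored -39.06 and -22.23, and Mock and HIF-1α-KD replicate 1 scored 25.66 and 22.73. For Hif1a the log2 fold change was -1.21 without HIF-1α-KD replicate 1 (adjusted p = 0.0911 in limma) and -1.07 without both libraries numbered 1 (adjusted p = 0.164 in limma), and in each case the groups did not overlap. Leaving out both, here and below, was chosen after seeing the data.

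Regulatory sequence in front of the genes was examined in promoter windows of RefSeq (mouse assembly GRCm38.p6), which run from 250 bases before to 50 bases after the transcription start. Of the 10 members, 8 had an entry, and Mmp2 and Mmp9 had none. The windows were searched on both strands for 3 motifs. The first was the AP-1 site, TGAGTCA. The second was the core of the hypoxia response element, which HIF binds, spelled ACGTG in one form and with G in place of the first A in the other. The third was the CCAAT box. The motifs share no letters with one another in these windows. The 3 neighbouring genes on chromosome 9, Mmp13, Mmp3 and Mmp10, each held 1 AP-1 site close to the start, as is known for these genes, and neither of the other motifs. Their windows are printed because AP-1 subunits are among the transcripts described below. That of Timp3 is printed as the member with the most negative log2 fold change, and it held 1 hypoxia response element core and no AP-1 site. Capitals mark the AP-1 site, or the core in Timp3. The windows are chr9:7272264-7272563 for Mmp13, chr9:7445572-7445871 for Mmp3, chr9:7502092-7502391 for Mmp10 and chr10:86300162-86300461 for Timp3, all on the plus strand and written 5′ to 3′.
Mmp13: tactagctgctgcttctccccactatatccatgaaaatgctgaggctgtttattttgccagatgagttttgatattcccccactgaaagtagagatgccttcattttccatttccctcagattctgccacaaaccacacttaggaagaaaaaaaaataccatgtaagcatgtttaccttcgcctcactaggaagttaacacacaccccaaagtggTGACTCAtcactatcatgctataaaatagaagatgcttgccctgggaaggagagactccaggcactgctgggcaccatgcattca
Mmp3: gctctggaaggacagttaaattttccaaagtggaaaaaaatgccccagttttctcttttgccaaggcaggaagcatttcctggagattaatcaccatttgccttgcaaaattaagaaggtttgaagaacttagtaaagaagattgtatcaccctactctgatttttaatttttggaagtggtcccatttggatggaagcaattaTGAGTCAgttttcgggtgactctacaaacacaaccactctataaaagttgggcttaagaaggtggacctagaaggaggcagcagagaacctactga
Mmp10: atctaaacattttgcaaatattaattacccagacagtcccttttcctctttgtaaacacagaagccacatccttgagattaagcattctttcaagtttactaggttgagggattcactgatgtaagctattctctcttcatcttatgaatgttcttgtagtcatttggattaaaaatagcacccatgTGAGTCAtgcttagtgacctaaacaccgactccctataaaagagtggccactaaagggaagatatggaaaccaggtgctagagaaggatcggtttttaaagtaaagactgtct
Timp3: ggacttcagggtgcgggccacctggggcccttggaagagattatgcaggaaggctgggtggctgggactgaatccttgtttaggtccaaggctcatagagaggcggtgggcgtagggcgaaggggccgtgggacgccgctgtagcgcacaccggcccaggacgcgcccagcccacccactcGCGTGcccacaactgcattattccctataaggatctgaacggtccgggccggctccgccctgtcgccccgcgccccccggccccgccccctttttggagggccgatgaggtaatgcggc

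The first base of the AP-1 site lay at -35 in Mmp13, at -46 in Mmp3 and at -63 in Mmp10. The AP-1 letters were found in 5.2% of all 32851 promoter windows of the same length. The hypoxia response element core was found once in Mmp14 (-48), Timp2 (-113) and Timp3 (-69) and at -82 and -206 in Timp1, against 43.8% of all windows. The CCAAT box was found at 2 positions in Mmp14 and at 1 in Timp1 and Timp2, against 37.4% of all windows, and Mmp11 held none of the motifs. A match of letters is not a binding site, and none of these libraries measured binding.

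**Figure D1:**
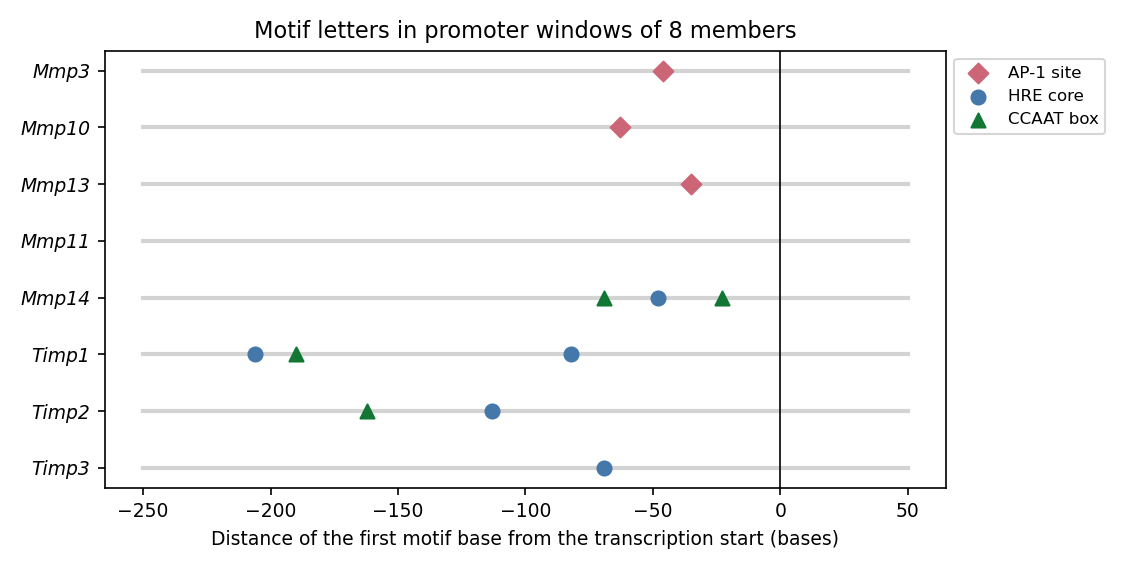
Positions of the searched motifs in the promoter windows of 8 members. The horizontal axis is the distance of the first motif base from the transcription start in bases, each grey line is 1 window, and symbols mark AP-1 sites, hypoxia response element (HRE) cores and CCAAT boxes. The 3 AP-1 sites lie in Mmp3, Mmp10 and Mmp13, between -63 and -35.

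Across the 10 members, 4 proteinases and 2 inhibitors were abundant and 4 members were near the detection limit. Of the 10 members, 9 passed the filter on low counts, and Mmp3 did not. None of the 9 reached an adjusted p under 0.05 in limma, nor by edgeR or DESeq2 on the recovered reads. Of all genes tested 0.391% did in limma, 0.391% in edgeR and 2.36% in DESeq2. At an unadjusted p under 0.05, the limit the study states, 1 of 9 members passed (Mmp9, higher in HIF-1α-KD), beside 12.7% of all genes tested, so the members passed no more often than the table at large. None of the 9 tested members had groups without overlap, beside 19.2% of all genes tested. The log2 fold change was above 0 for 5 members and below 0 for 4, with a median of 0.07 beside 0.02 over all genes tested.

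**Figure D2:**
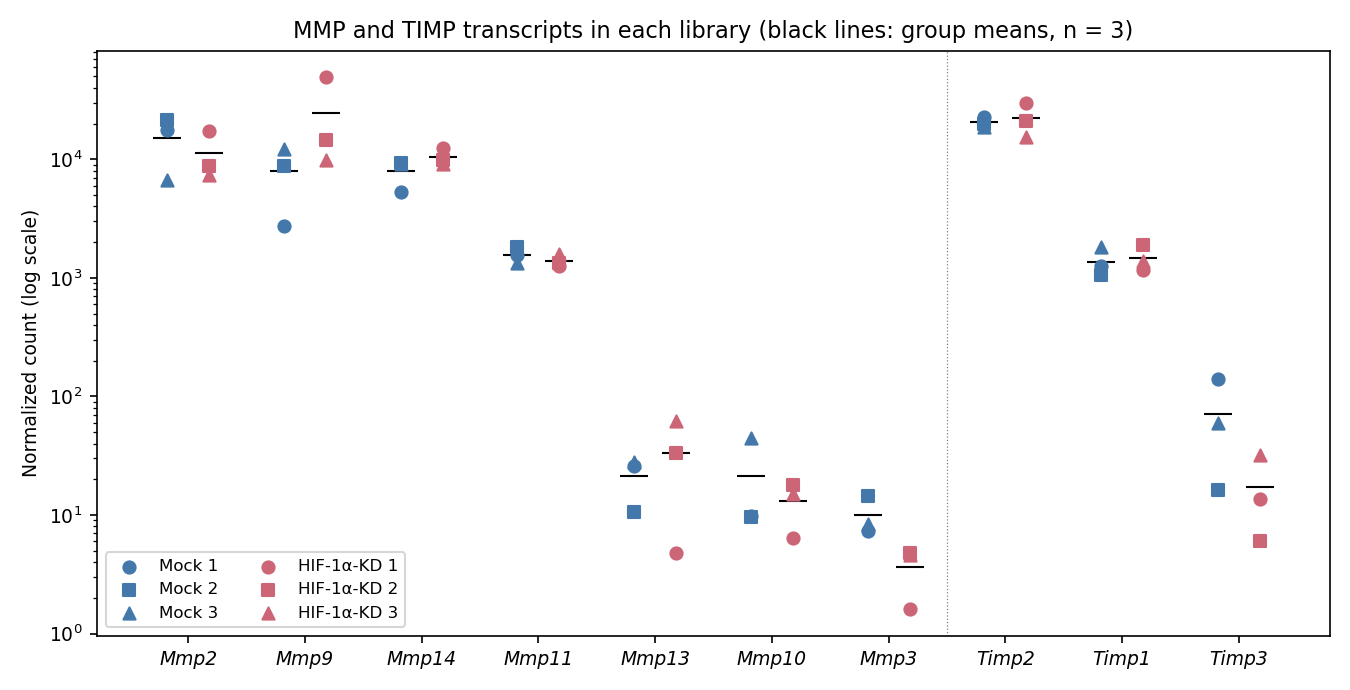
Normalized counts of the 10 members on a log axis, with Mock libraries in blue and HIF-1α-KD libraries in red; symbols give the replicate number and black lines the group means of 3 libraries. Mmp9 spans 2756 to 49040 and Mmp11 spans 1265 to 1814, and Mmp3 is the member whose groups do not overlap.

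Mmp9, the gelatinase B gene at chromosome 2, 164940780 to 164955850 (plus strand, GRCm38), varied most among the abundant members. Its normalized counts were 2756, 8843 and 12310 in Mock cells, against 49040, 14490 and 9763 in HIF-1α-KD cells, for means of 7970 ± 4837 and 24430 ± 21440 (SD, n = 3). HIF-1α-KD replicates 1 and 2 lay above all Mock libraries, while replicate 3 lay between Mock replicates 2 and 3, so the groups overlapped. The log2 fold change was 1.51 (SE 0.66, 95% confidence interval 0.01 to 3.02), with adjusted p = 0.391 in limma. By edgeR the log2 fold change was 1.59 (adjusted p = 0.375), and by DESeq2 it was 1.60 (adjusted p = 0.448). The unadjusted p was under 0.05 in limma and edgeR and not in DESeq2. The log2 fold change was 0.83 without HIF-1α-KD replicate 1 (adjusted p = 0.585 in limma) and 0.87 without Mock replicate 1 (adjusted p = 0.747 in limma). It was 1.99 without HIF-1α-KD replicate 3 (adjusted p = 0.318 in limma) and 1.95 without Mock replicate 3 (adjusted p = 0.386 in limma), where the groups no longer overlapped. Without Mock replicate 2 and without HIF-1α-KD replicate 2 it was 1.71 each. Without both libraries numbered 1, chosen after seeing the data, it was 0.19 (adjusted p = 0.799 in limma). Those libraries hold the highest HIF-1α-KD and the lowest Mock value, so the difference had to shrink.

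The single library HIF-1α-KD replicate 1 stood far above the rest for Mmp9. Its value was 3.38-fold that of the next highest library, 5.02-fold the median of the other 5 and 17.79-fold that of Mock replicate 1. Mmp9 took 0.1979% of the reads on genes there (95% Wilson interval 0.1963 to 0.1995, counting error only), and in the other libraries 0.01075%, 0.03683% and 0.04819% in Mock cells, against 0.06089% and 0.04115% in HIF-1α-KD replicates 2 and 3. By FPKM (reads per kilobase of gene width, scaled to the library total) it was the transcript of rank 53 in that library, and of rank 217 to 1412 in the others. Of the 12014 genes tested, 23.16% had their highest value in HIF-1α-KD replicate 1 and 24.4% in Mock replicate 1, and 21 genes, or 0.1748%, had an excess over the next highest library as large as that of Mmp9 in HIF-1α-KD replicate 1. Mmp9 in this library was singled out with its value known, so its place among all genes is a description and not a test. Mmp9 had the highest normalized count among these 21 genes. The same library had the lowest Hif1a value of all.

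Mmp9 is also a gene of neutrophils, macrophages and osteoclasts, so markers of these cells were set beside it. The sum of 12 neutrophil markers was 67.71, 107.2 and 107.5 in Mock cells, against 24.93, 86.34 and 161.7 in HIF-1α-KD cells, so the library with the highest Mmp9 value had the lowest sum, and the S100a9 value there was 7.239. Of these markers 5 of 12 reached a normalized count of 10 in any library, and Camp was at 0 in all 6. The sum of 12 macrophage and monocyte markers, all of which reached 10, was 6049, 6399 and 6544 in Mock cells, against 3721, 3983 and 18790 in HIF-1α-KD cells. It was again lowest in HIF-1α-KD replicate 1, and highest in HIF-1α-KD replicate 3, where Mmp9 was lowest of its group. Its leading markers were Lyz2, C1qb, C1qa and C1qc. The 6 osteoclast markers summed to 143.8 to 301.5 in Mock cells, against 242.9 to 262.6 in HIF-1α-KD cells, most of it Acp5, and Oscar was at 0 in all 6 libraries. Whether cells of these types had part in the Mmp9 values was not tested.

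**Figure D3:**
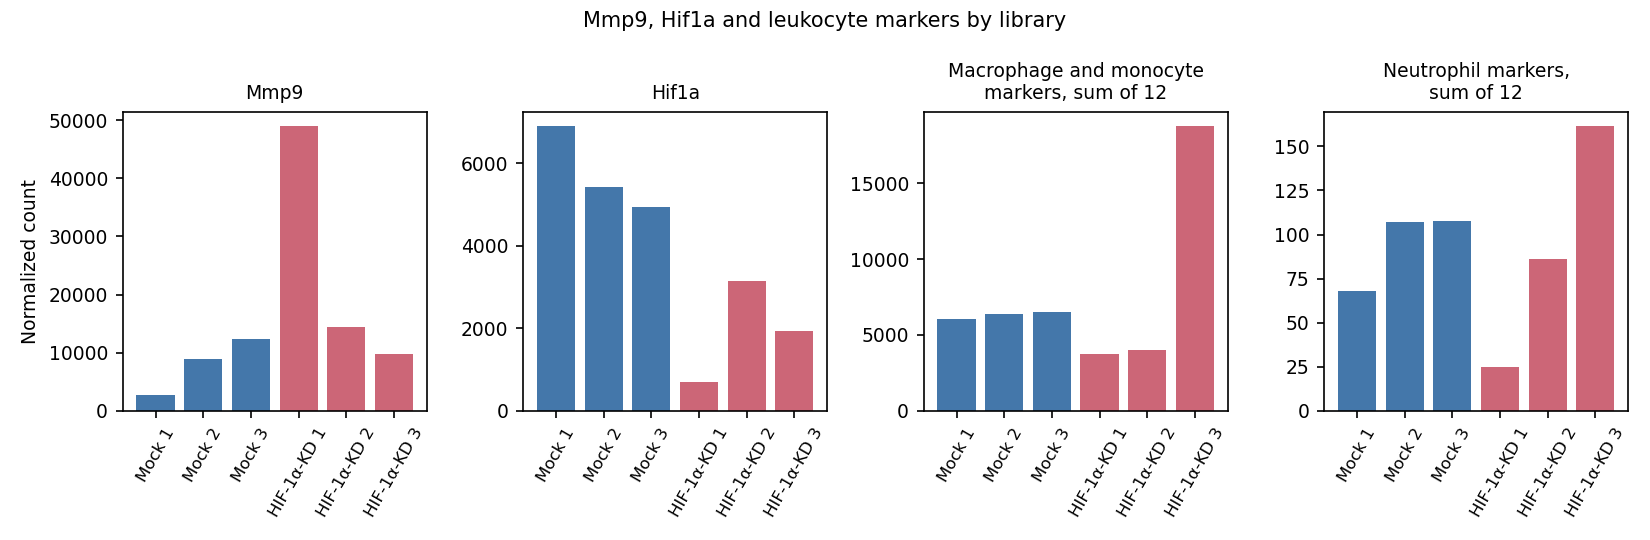
Normalized counts of Mmp9, of Hif1a and of the summed macrophage and neutrophil markers in each library, on linear axes from 0, with Mock in blue and HIF-1α-KD in red. HIF-1α-KD replicate 1 has the highest Mmp9 bar (49040) and the lowest bar in the other 3 panels.

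Mmp2, the gelatinase A gene at chromosome 8, 92827291 to 92853420 (plus strand), was measured at normalized counts of 17630, 21380 and 6646 in Mock cells, against 17410, 8774 and 7363 in HIF-1α-KD cells. Both groups held high and low libraries: Mock replicates 1 and 2 and HIF-1α-KD replicate 1 were high, and the other 3 were low. The group means were 15220 ± 7657 and 11180 ± 5439 (SD, n = 3), and the log2 fold change was -0.39 (SE 0.45, adjusted p = 0.764 in limma). With 1 library left out the log2 fold change ranged from -0.90 without Mock replicate 3, where the groups no longer overlapped (adjusted p = 0.399 in limma), to -0.06 without Mock replicate 2 (adjusted p = 0.97 in limma). Mmp2 is a typical fibroblast product. The sum of 10 fibroblast and pericyte markers was 31680, 32850 and 51490 in Mock cells, against 39720, 39470 and 25050 in HIF-1α-KD cells, so that Mock replicate 3, with the lowest Mmp2, had the highest sum. Of that sum Dcn, decorin, took the largest part, followed by Pdgfra, Pdgfrb and Cspg4, and it was Dcn that was high in Mock replicate 3. Pdgfra was measured at 5557, 5597 and 3514 in Mock cells, against 7875, 4903 and 3043 in HIF-1α-KD cells, and so was higher in the 3 libraries with high Mmp2 than in the other 3, whereas Pdgfrb and Cspg4 were lowest in Mock replicate 1, where Mmp2 was high. The markers thus did not share 1 order of libraries. Whether such cells had part in the Mmp2 values was not tested. In bulk samples, fewer cells of a type and less RNA per cell cannot be told apart.

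Mmp14, the membrane-type proteinase at chromosome 14, 54431612 to 54445364 (plus strand), was measured at normalized counts of 5274, 9282 and 9156 in Mock cells, against 12380, 9818 and 9031 in HIF-1α-KD cells. HIF-1α-KD replicates 1 and 2 lay above all Mock libraries and replicate 3 was within their range. The means were 7904 ± 2279 and 10410 ± 1751 (SD, n = 3), with a log2 fold change of 0.43 (SE 0.24, 95% confidence interval -0.11 to 0.97, adjusted p = 0.488 in limma). The low Mock replicate 1 decided most of that difference, and leaving it out gave 0.16. Without both libraries numbered 1, which hold the highest HIF-1α-KD and the lowest Mock value, the log2 fold change was 0.03.

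Mmp11, stromelysin-3 by name (chromosome 10, 75923222 to 75936496, minus strand), was the steadiest member. Its normalized counts were 1555, 1814 and 1344 in Mock cells, against 1265, 1343 and 1588 in HIF-1α-KD cells, and the groups overlapped. The log2 fold change was -0.16 (SE 0.17, 95% confidence interval -0.54 to 0.22, adjusted p = 0.723 in limma).

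The 3 genes of the chromosome 9 cluster were scarce in all libraries. Mmp3, stromelysin-1 (chromosome 9, 7445822 to 7455975, plus strand), was measured at normalized counts of 7.386, 14.35 and 8.456 in Mock cells, against 1.609, 4.796 and 4.62 in HIF-1α-KD cells. These rest on 6, 15 and 7 reads in Mock cells, against 2, 4 and 4 reads in HIF-1α-KD cells, and all HIF-1α-KD values were below all Mock values. Mmp3 did not pass the filter, so it was not tested with the others, and with no filter its log2 fold change was -1.28 (adjusted p = 0.436 in limma). Mmp10, stromelysin-2 (chromosome 9, 7502352 to 7510240, plus strand), was measured at normalized counts of 9.848, 9.57 and 44.69 in Mock cells, against 6.434, 17.99 and 15.02 in HIF-1α-KD cells. Mock replicate 3 was far above the rest, and the log2 fold change was -0.40 (SE 0.71, adjusted p = 0.842 in limma). It turned to 0.29 without Mock replicate 3 and was 0.0061 without HIF-1α-KD replicate 1. Mmp13, collagenase 3 (chromosome 9, 7272514 to 7283331, plus strand), was measured at normalized counts of 25.85, 10.53 and 27.78 in Mock cells, against 4.826, 33.57 and 62.38 in HIF-1α-KD cells. HIF-1α-KD replicate 1 was below and replicates 2 and 3 were above all Mock libraries, and the log2 fold change was 0.17 (SE 0.85, adjusted p = 0.949 in limma). Its sign turned with the libraries used, from -0.55 without HIF-1α-KD replicate 3, -0.25 without Mock replicate 2 and -0.11 without HIF-1α-KD replicate 2 to 1.18 without HIF-1α-KD replicate 1. Mmp3 and Mmp10 share 5 windows of 100 bases, or 0.29% and 0.31% of their exon windows, so few reads could be split between them.

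Timp2 was the main inhibitor transcript. Timp2 (chromosome 11, 118301069 to 118355740, minus strand) was measured at normalized counts of 22890, 19700 and 18680 in Mock cells, against 29980, 21100 and 15490 in HIF-1α-KD cells. HIF-1α-KD held both the highest and the lowest library, and the log2 fold change was 0.07 (SE 0.23, 95% confidence interval -0.46 to 0.60, adjusted p = 0.922 in limma). It turned to -0.17 without HIF-1α-KD replicate 1 and to -0.086 without both libraries numbered 1, and was 0.31 without HIF-1α-KD replicate 3. Timp1, whose protein also binds proMMP9 (chromosome X, 20870166 to 20874735, plus strand), was measured at normalized counts of 1248, 1058 and 1805 in Mock cells, against 1161, 1889 and 1382 in HIF-1α-KD cells. The groups overlapped over nearly their whole range, and the log2 fold change was 0.12 (SE 0.24, 95% confidence interval -0.44 to 0.67, adjusted p = 0.873 in limma). With 1 library left out it ranged from -0.077 without HIF-1α-KD replicate 2 to 0.33 without Mock replicate 3, and it was also below 0 without Mock replicate 2.

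Timp3, an inhibitor that is held in the extracellular matrix (chromosome 10, 86300372 to 86349506, plus strand), had the most negative log2 fold change among the members. Its normalized counts were 139.1, 16.27 and 59.19 in Mock cells, against 13.67, 5.995 and 32.34 in HIF-1α-KD cells, from 113, 17 and 49 reads and from 17, 5 and 28 reads. HIF-1α-KD replicates 1 and 2 lay below all Mock libraries, replicate 3 lay between Mock replicates 2 and 3, and Mock replicate 1 was far above all others. The means were 71.52 ± 62.34 and 17.34 ± 13.55 (SD, n = 3), with a log2 fold change of -1.80 (SE 0.82, 95% confidence interval -3.67 to 0.06, adjusted p = 0.405 in limma). The unadjusted p missed 0.05 in limma and was under it with both count methods, edgeR (adjusted p = 0.357) and DESeq2 (adjusted p = 0.167). With 1 library left out the log2 fold change ranged from -2.61 without Mock replicate 2, where the groups no longer overlapped (adjusted p = 0.265 in limma), to -1.10 without Mock replicate 1 (adjusted p = 0.773 in limma). The groups did not overlap without HIF-1α-KD replicate 3 either, with -2.38 (adjusted p = 0.337 in limma). Timp3 shares 1733 exon bases, or 21.28% of its own, with Syn3 on the opposite strand, and whether the counting used strand is not given in the sources used here. Syn3 had a normalized count of at most 2.462.

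**Figure D4:**
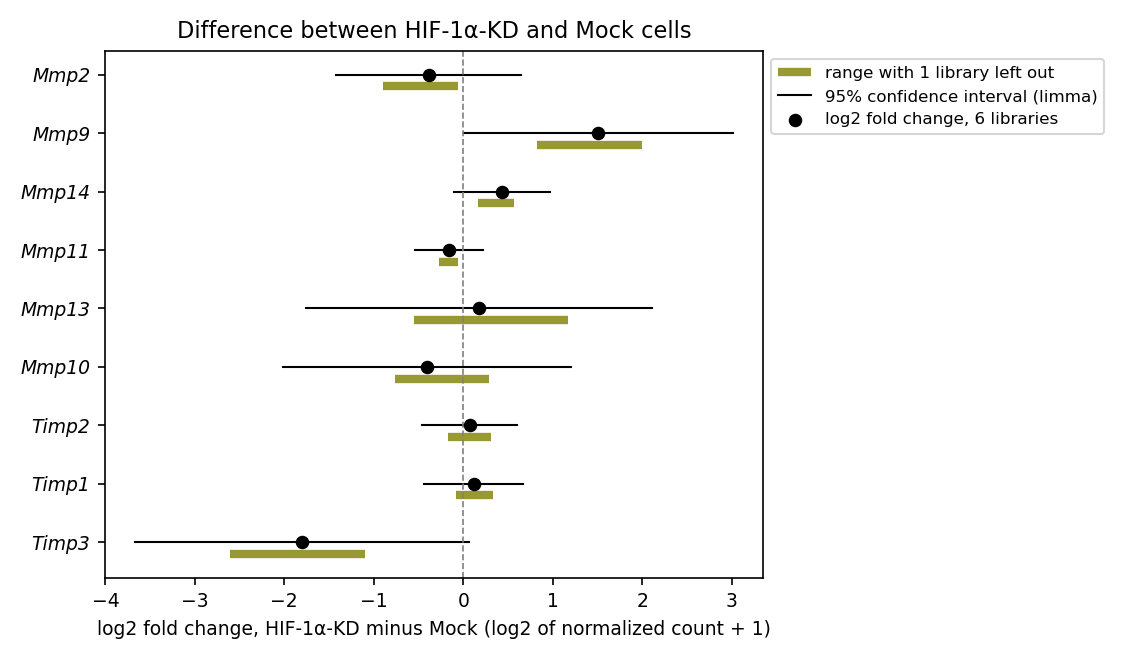
Log2 fold change of HIF-1α-KD over Mock for the 9 members tested, on the scale of log2(normalized count + 1); points are the fit of 6 libraries, black lines its 95% confidence interval and olive bars the range over fits with 1 library left out. Mmp9 (1.51) and Timp3 (-1.80) lie farthest from 0, and the bars of Mmp10, Mmp13, Timp1 and Timp2 cross 0.

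Spread between libraries of a group differed widely between members. The within-group SD on the log2 scale was 1.17 for Mmp9, larger than for 97.95% of the genes tested and than for 99.64% of the 276 genes of similar level. It includes HIF-1α-KD replicate 1, singled out with its Mmp9 value known, so this place is a description and not a test. For Mmp2 it was 0.79, larger than for 98.47% of 262 genes of similar level. It was 0.37 for Mmp14, 0.38 for Timp1 and 0.35 for Timp2, and 0.19 for Mmp11, which 42.38% of genes of similar level undercut. Timp3 (1.34) and Mmp13 (1.37) had the largest SD, larger than for 95.82% and 95.33% of genes of similar level.

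Levels between members were compared by FPKM, which divides by the width of the gene as deposited. Over the 6 libraries the mean FPKM was 511.2 for Mmp9, 391.7 for Timp2, 316.9 for Mmp14, 176.5 for Mmp2, 67.57 for Timp1 and 52.19 for Mmp11. In Mock alone Mmp9 (247.4 ± 148.8) was below Timp2 (368.7 ± 36.47) and Mmp14 (268.5 ± 82.56, SD, n = 3), and the mean of Mmp9 over 5 libraries without HIF-1α-KD replicate 1 was 306.7, below the 360.5 of Timp2 and above the 295.6 of Mmp14. The other 4 members were below 1, with 0.77 for Timp3, 0.42 for Mmp13, 0.41 for Mmp10 and 0.16 for Mmp3. Neighbours in that order were not well separated at the top, since Mmp9 exceeded Timp2 in 4 of 6 libraries, Timp2 exceeded Mmp14 in 5 and Mmp14 exceeded Mmp2 in 5. At the bottom, Timp3 exceeded Mmp13 in 4 of 6 libraries and Mmp13 exceeded Mmp10 in 3. The steps from Mmp2 to Timp1 and from Mmp11 to Timp3 held in 6 of 6 libraries. The order depended on the length used, because the deposited width of Mmp9 is 1290 bases and that of Mmp14 is 1180 bases, while all their annotated exon bases are 3539 and 5960 (GENCODE, GRCm38). On the same scale but per kilobase of annotated exon bases, a comparison chosen after seeing the data, Timp2 came first at 222.2, followed by Mmp9 at 186.4, Mmp2 at 159.2, Timp1 at 65.28, Mmp14 at 62.74 and Mmp11 at 21.79. The place of Mmp9 above Mmp2 rested on HIF-1α-KD replicate 1, and without it the means were 111.8 for Mmp9 and 149.3 for Mmp2.

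The make-up of the MMP transcripts by FPKM differed between libraries. Mmp9 was 15.22%, 29.07% and 45.66% of the summed FPKM of all MMP genes in Mock cells, against 68.43%, 46.92% and 39.14% in HIF-1α-KD cells. Mmp2 was 41.3%, 29.82% and 10.46% in Mock cells, against 10.31%, 12.05% and 12.53% in HIF-1α-KD cells, so that Mock replicate 3 resembled the HIF-1α-KD libraries. Mmp14 was 31.82% to 37.14% in Mock cells, against 34.74% and 39.58% in HIF-1α-KD replicates 2 and 3, and 18.89% in HIF-1α-KD replicate 1. Mmp9, Mmp14, Mmp2 and Mmp11 together were at least 97.89% in every library. These shares rest on the deposited widths. Per annotated exon base, among the 7 member MMPs and chosen after seeing the data, the share of Mmp2 was 70.0%, 57.3% and 26.2% in Mock cells, against 24.0%, 29.4% and 30.9% in HIF-1α-KD cells. On that scale Mmp9 took 10.4% to 46.3% in Mock cells, against 39.1% to 64.3% in HIF-1α-KD cells, and Mmp14 took 9.63% to 21.4% over the 6 libraries, so that Mmp2 was above Mmp14 in all 6, and Mmp9 was again highest in HIF-1α-KD replicate 1. Among the inhibitors Timp2 was by FPKM between 79.88% and 90.9% of the summed FPKM.

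**Figure D5:**
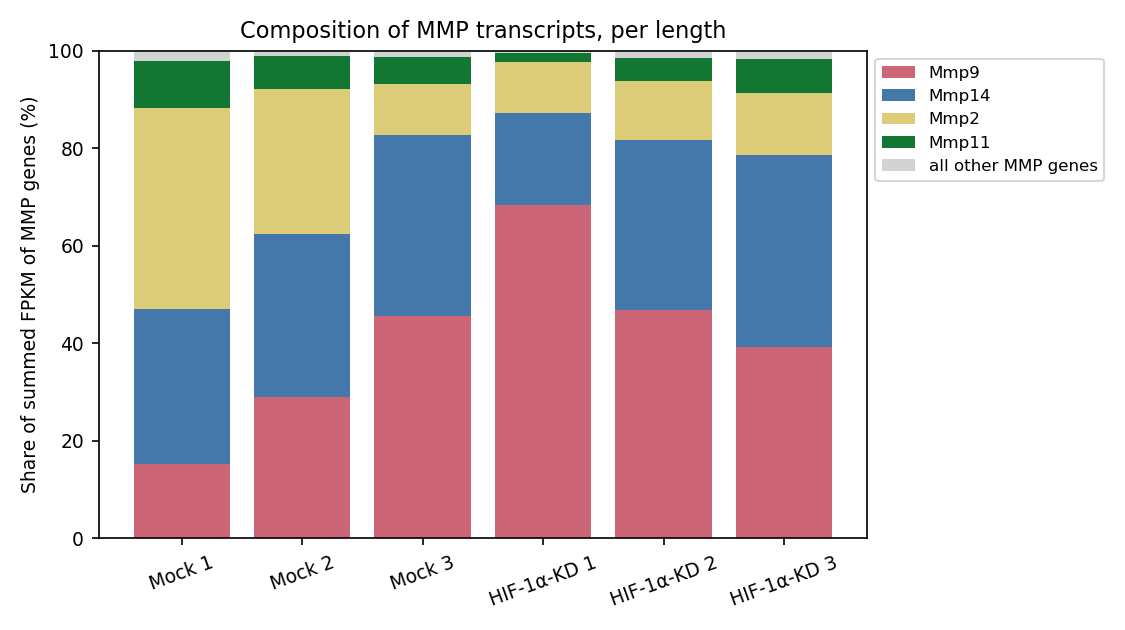
Share of each MMP in the summed FPKM of all MMP genes, in percent, for each library; colours mark Mmp9, Mmp14, Mmp2 and Mmp11, and grey all other MMP genes. Mmp9 goes from 15.22% in Mock replicate 1 to 68.43% in HIF-1α-KD replicate 1, and the grey part is small in every library.

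Ratios of proteinase to inhibitor were compared because the proteins act as pairs. The log2 ratio of Mmp9 to Timp1 was 1.14, 3.06 and 2.77 in Mock cells, against 5.40, 2.94 and 2.82 in HIF-1α-KD cells, a difference in means of 1.40 (exact permutation test, two-sided, p = 0.4). HIF-1α-KD replicate 1 was far above and Mock replicate 1 far below the other 4. Leaving out both, chosen after seeing the data, had to shrink the difference, which was then -0.04. The log2 ratio of Mmp14 to Timp2 was -2.12, -1.09 and -1.03 in Mock cells, against -1.28, -1.10 and -0.78 in HIF-1α-KD cells, a difference of 0.36 (exact permutation test, two-sided, p = 0.6), which was 0.0045 without Mock replicate 1. For Mmp2 to Timp2 the log2 ratio was -0.38, 0.12 and -1.49 in Mock cells, against -0.78, -1.27 and -1.07 in HIF-1α-KD cells, a difference of -0.46 (exact permutation test, two-sided, p = 0.5), which was -0.91 without Mock replicate 3 and -0.11 without Mock replicate 2. With 3 libraries against 3, this test cannot give a p below 0.1, and none of the 3 ratios separated the groups.

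Of the 18 MMP and TIMP genes that are no members, 4 passed the filter. Mmp28, epilysin, was measured at normalized counts of 81.25, 61.25 and 106.3 in Mock cells, against 189, 227.8 and 137.5 in HIF-1α-KD cells, without overlap of the groups, and a log2 fold change of 1.15 (SE 0.30, adjusted p = 0.238 in limma). Mmp16, another membrane-type proteinase, was measured at normalized counts of 25.85, 13.4 and 45.9 in Mock cells, against 41.82, 81.54 and 54.29 in HIF-1α-KD cells, and a log2 fold change of 1.14 (SE 0.50, adjusted p = 0.39 in limma). Mmp28 passed the unadjusted limit of 0.05 in limma and with both count methods (adjusted p = 0.0543 in DESeq2). Mmp16 passed it in limma and not with edgeR, DESeq2, TMM scaling, no filter, the replicate block, or without both libraries numbered 1. None of the 9 members tested had groups without overlap, as Mmp28 did. The log2 fold change was -0.46 for Mmp19 (adjusted p = 0.56 in limma) and -0.25 for Mmp12, the macrophage elastase (adjusted p = 0.886 in limma). Mmp12 was highest in HIF-1α-KD replicate 3 and lowest in HIF-1α-KD replicate 1, at normalized counts of 239.1 and 45.04, which are also the libraries with the highest and lowest sum of macrophage markers. Of the other 14, 6 had no read in any library (Mmp1a, Mmp1b, Mmp7, Mmp20, Mmp21 and Timp4), which allows up to 3 reads per library by counting error, and 8 had a normalized count of at most 22.01.

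Genes that act with MMPs were counted at the same limits, beside 7.04% of all genes tested at an unadjusted p under 0.05 and higher in HIF-1α-KD, and 5.69% lower. Of the genes under that limit 55.3% were thus higher. This share was 67.4% with scaling by total reads, 49.2% with TMM scaling and 49.0% with edgeR, so its direction depended on the scaling, and with 1 library left out it was 46.3% (without Mock replicate 1) to 59.8% (without Mock replicate 2). Among activators and partners of MMPs, Klk8, a kallikrein-type serine protease, had a log2 fold change of -2.12 (SE 0.41), and Bsg, the MMP inducer basigin, had -0.74 (SE 0.16). Both were lower in every HIF-1α-KD library than in every Mock library and passed the unadjusted limit. The adjusted p was 0.109 for Klk8 and 0.155 for Bsg in limma, and with DESeq2, which called 2.36% of all genes, both passed the adjusted limit (adjusted p = 0.000194 and 0.00334 in DESeq2). Reck, a membrane-anchored inhibitor of MMPs, had 0.30 (SE 0.21, adjusted p = 0.595 in limma), and Furin, a protease that activates proMMPs, had 0.36 (SE 0.27, adjusted p = 0.615 in limma).

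Of 31 ADAM, ADAMTS and tolloid genes (the last being Bmp1, Tll1 and Tll2), metalloproteinase relatives of the MMPs of which many shed cell surface proteins or cleave matrix proteins, 17 were tested, and 2 passed the unadjusted limit, both lower. Adam8 had a mean normalized count of 6316 ± 2055 in Mock cells, against 3166 ± 344.3 in HIF-1α-KD cells (SD, n = 3), a log2 fold change of -0.95 (SE 0.23, adjusted p = 0.203 in limma and adjusted p = 0.00324 in DESeq2). Adam22, which is known to lack protease activity, had a log2 fold change of -1.19 (SE 0.39, adjusted p = 0.296 in limma), and the next by p were Adam17 with 0.27 (SE 0.16) and Adamts10 with 0.55 (SE 0.39). The median of the 17 was -0.03.

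Of 25 substrates of MMPs 21 were tested, and 4 passed the unadjusted limit, all higher in HIF-1α-KD. Col18a1, which encodes collagen XVIII, had a mean normalized count of 1653 ± 739.9 in Mock cells, against 5899 ± 2100 in HIF-1α-KD cells (SD, n = 3), a log2 fold change of 1.89 (SE 0.36, adjusted p = 0.109 in limma and adjusted p = 8.32e-06 in DESeq2). For the fibrillar collagen chains it was 1.09 (SE 0.26) for Col3a1 (adjusted p = 0.206 in limma and adjusted p = 0.00399 in DESeq2) and 1.99 (SE 0.62) for Col1a1, and for Tnc, tenascin C, it was 1.48 (SE 0.60). The first 3 had no overlap of the groups, 3 of 21 beside 19.2% of all genes tested. Without both libraries numbered 1 the log2 fold change was 1.23 for Col18a1, 0.81 for Col3a1, 0.86 for Col1a1 and 0.99 for Tnc. That of Tnc was 0.69 without Mock replicate 1 alone, where it missed the unadjusted limit. It also missed this limit in limma without HIF-1α-KD replicate 2 or 3 and in edgeR, and passed it in DESeq2. The median of the 21 was 0.24, and without both libraries it was -0.17. Of the fibroblast and pericyte markers 9 were tested, and 3 passed the unadjusted limit, all higher in HIF-1α-KD, beside 7.04% of all genes tested. These were Cspg4 with a log2 fold change of 1.42 (SE 0.47), Rgs5 with 1.15 (SE 0.40), both without overlap of the groups, and Pdgfrb with 0.59 (SE 0.25). Without both libraries numbered 1 these were 0.76, 0.73 and 0.27, and 2 of the 9 markers passed the unadjusted limit higher and 1 lower. Their part in the values of the collagens and Tnc was not tested.

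Of 26 transcription factors known to act on MMP promoters all were tested, and 11 passed the unadjusted limit, 9 lower and 2 higher in HIF-1α-KD. Fosl2, an AP-1 subunit, fell from 2146 ± 117 to 1091 ± 129.4 normalized counts (SD, n = 3), a log2 fold change of -0.98 (SE 0.15, adjusted p = 0.0327 in limma). In limma and edgeR with all 6 libraries it was the one gene of the lists past the adjusted limit. Leaving out any 1 library ended the limma call, with an adjusted p between 0.0609 and 0.155 in limma, and so did leaving out both libraries numbered 1 (adjusted p = 0.0865 in limma), the replicate block (adjusted p = 0.116 in limma) and scaling by total reads (adjusted p = 0.0576 in limma), while the sign held. The AP-1 subunits Jund and Jun had log2 fold changes of -1.47 (SE 0.30, adjusted p = 0.127 in limma) and -1.13 (SE 0.33, adjusted p = 0.261 in limma), and the ETS factor Etv1 had 0.93 (SE 0.21, adjusted p = 0.181 in limma). With DESeq2, 5 of the 26 passed the adjusted limit, 4 lower (Fosl2, Jund, Jun and Junb) and Etv1 higher, with an adjusted p of 8.07e-06 for Fosl2, 2.16e-05 for Jund, 0.0272 for Jun and 0.0154 for Etv1. Jund also passed it in limma without both libraries numbered 1 (log2 fold change -1.75, adjusted p = 0.0298 in limma). The median of the 26 was -0.26. Without both libraries numbered 1 the counts at the unadjusted limit were 9 lower and 2 higher for the transcription factors, 4 higher for the substrates, and 2 lower and 1 higher for the ADAM, ADAMTS and tolloid genes, beside 11.6% of all genes tested in both directions. Of the 3 members with an AP-1 site in the window printed above, Mmp3 alone was lower in every HIF-1α-KD library than in every Mock library, from 15 reads or fewer in each library, and the relation between the factors and the members was not tested.

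Endothelial, lymphocyte and epithelial markers each summed to fewer normalized counts than the macrophage markers in every library. The 8 endothelial markers summed to 510.9 to 631.7 in Mock cells, against 328 to 484.4 in HIF-1α-KD cells, mostly Cdh5, and the 9 markers of T, B and NK cells to 166.6 to 331.1 and 142.1 to 236.2, mostly Cd79a, with Ncr1 at 0 in all 6 libraries. The 10 markers of colon epithelium summed to 188.4, 112 and 741.7 in Mock cells, against 138.3, 118.7 and 106.3 in HIF-1α-KD cells. Mock replicate 3 was the library with the high epithelial sum. Within Mock it was highest for Mmp9, Mmp10, Mmp13 and Timp1 and lowest for Mmp2, Mmp11 and Timp2. The sum was led by Krt8, Cdh17, Krt19 and Cdh1. Cdh17 had a log2 fold change of -2.5 (SE 0.78, adjusted p = 0.287 in limma) and Cdh5 had -0.84 (SE 0.27, adjusted p = 0.294 in limma). Both were lower without overlap of the groups and passed the unadjusted limit, 1 of 4 epithelial and 1 of 3 endothelial markers tested, beside 5.69% of all genes. With DESeq2, which called 2.36% of all genes, Cdh17 passed the adjusted limit and Cdh5 did not. Epcam and Cdx2, also markers of colon epithelium, reached normalized counts of at most 37.45 and 2.416, while Krt8, Cdh17 and Krt19 reached 190.9, 141.3 and 120.8 in Mock replicate 3. Dcn, the highest of the fibroblast and pericyte markers, was abundant in all 6 libraries, whereas Rgs5 of that list reached at most 66.76. The part of such cells in the members' values was not tested.

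Genes whose pattern over the 6 libraries was most like that of Mmp9 or Timp3 were ranked by Pearson's r of log2(normalized count + 1), as a description. For Mmp9 they were Nkain1 (0.99936), BC017158 (0.99449), Serpinh1 (0.99417), Trub1 (0.99282) and Ubac1 (0.99202). Serpinh1, the collagen chaperone HSP47, was measured at normalized counts of 19340, 30870 and 41510 in Mock cells, against 78850, 43480 and 37130 in HIF-1α-KD cells, in the same order of libraries as Mmp9. An r above 0.9 was reached by 429 genes for Mmp9 and by 107 for Timp3, and with 6 libraries many genes can share 1 pattern. For Timp3 the nearest were C1qbp (0.97725), Capzb (0.97625), Ndufa9 (0.97479), Naca (0.97398) and Zfp119a (0.97182).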

How the data were processed

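RNA of sorted MC-38GFP tumor cells was measured in 6 libraries, grouped by their labels as 3 Mock and 3 HIF-1α-KD. Libraries were made with a stranded poly-A kit. After trimming, the authors used STAR for alignment and featureCounts for counting. The methods name the assembly GRCh38, whereas the submitters' processing notes name GRCm38 (with STAR and edgeR, versions not given), and the gene identifiers are those of mouse. The deposited normalized counts are a signal, reads divided by 1 factor per library, with 4 significant digits. The deposited FPKM values divide reads by gene width and library total. The deposited log2 ratio, p-value and false discovery rate hold the authors' own comparison and were not used.

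Reads were recovered from the steps of the normalized counts, and 100% of values up to 300 reads were whole (tolerance 0.05 reads beside rounding). Genes were filtered with filterByExpr of edgeR 4.0.16 (minimum count 10), leaving 12014. Log2(normalized count + 1) was tested with limma 3.58.1 and its trended variance prior, two-sided and adjusted by Benjamini-Hochberg over all genes tested. Confidence intervals of fold changes are unadjusted. The edgeR quasi-likelihood test and DESeq2 1.42.0 on recovered reads, other scalings, pseudocounts and filters, the replicate block and leaving out libraries were alternatives. Scripts were tested on simulated data.

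The members and lists were chosen with earlier results of these data known. All members are named, with further MMP and TIMP genes that passed the filter. Of the list of activators and partners 1 gene is not reported here, so no count of that list is given. From each other list up to 4 genes are named, those with the smallest p (for markers, those with the highest mean, plus Epcam, Cdx2, Rgs5 and markers at 0, named after their values were seen), with Junb also named after its values were seen, and for Mmp9 and Timp3 the 5 genes of highest r. Where a library total limits a value, intervals cover counting error only.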

Additional observations from a re-analysis of the deposited data

How the results depend on the processing

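All 9 members tested stayed above an adjusted p of 0.05 under every alternative run, and the log2 fold changes of Mmp2, Mmp9, Mmp11, Mmp14, Timp3 and Hif1a kept their sign. The number of genes past an adjusted p of 0.05 was 47 in the limma fit, 283 with DESeq2, and 0 with the replicate block, where 1324 genes had an unadjusted p under 0.05. With 1 library left out it was 0 to 37. At an unadjusted p under 0.05 there were 2 members with edgeR, 2 with no filter, 0 with TMM scaling, 0 without both libraries numbered 1 (chosen after seeing the data) and 0 to 2 with 1 library left out. Members without overlap were 1 with no filter (Mmp3), 1 without both libraries numbered 1 (Mmp13) and 0 to 4 with 1 library left out, the 4 being Mmp9, Mmp11, Mmp14 and Timp3 without HIF-1α-KD replicate 3. This count was not made for edgeR and DESeq2. Without both libraries numbered 1, the difference in the log2 ratio of Mmp9 to Timp1 was -0.036 and the log2 fold change of Timp2 was -0.086, and the median of the 21 substrates was -0.17. With 1 library left out, the log2 fold change ranged from -0.76 to 0.29 for Mmp10, from -0.55 to 1.18 for Mmp13, from -0.077 to 0.33 for Timp1 and from -0.17 to 0.31 for Timp2, and that of Mmp9 from 0.83 to 1.99. The cause of these shifts was not tested. Whether the replicate numbers pair the libraries is not given in the labels. The deviations of same-numbered libraries from their group means correlated at -0.14, -0.12 and 0.02. With 3 libraries per group such correlations cannot settle whether the libraries were paired. With the block, 1 member (Timp3 in place of Mmp9) had an unadjusted p under 0.05. Depth limits Mmp3, Mmp10, Mmp13 and Timp3, which rest on few reads.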
